A study of Homo sapiens with 8 samples.

Results

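Long non-coding RNA genes were followed through a time course of p53 activation. The members are all gene symbols in the deposited table that name a long intergenic RNA (LINC with a number), a numbered snoRNA host gene (SNHG), a miRNA host gene (MIR with HG), an antisense gene (-AS) or an intronic gene (-IT), together with NEAT1, MALAT1, MEG3, PVT1, GAS5, LINC-PINT and PANDAR. They are 1016 of the 18216 genes listed. Of these, 479 had at least 10 normalized counts in at least 2 libraries and were tested, among 14074 tested genes in all. The other 537 were too low for the test used here and enter none of its counts.

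Poly(A)-selected RNA came from IMR90, a line of human fetal lung fibroblasts, at passage 28. Cells received Nutlin-3a at 3 µg/mL for 6, 9 or 12 h, or the solvent DMSO, with 2 libraries in each of the 4 groups. All groups shared the medium with 10% serum, 3% oxygen, 5% CO2 and a seeding density of 300 k cells per mL on the day before. The labels do not say how long DMSO cultures were kept or whether replicates were separate cultures, so p-values measure the spread between these libraries, which may be technical.

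Nutlin-3a keeps MDM2, the ubiquitin ligase that marks p53 for destruction, from binding p53. Stabilized p53 is a transcription factor that switches on its targets by binding DNA, and many genes of proliferating cells are repressed downstream of it, largely through CDKN1A. Long non-coding RNAs work in several ways: some build nuclear bodies, as NEAT1 does for paraspeckles, some are the primary transcripts from which miRNAs or snoRNAs are cut, and some lie antisense to a protein-coding gene. Poly(A) selection recovers polyadenylated host transcripts, not the mature miRNAs or snoRNAs themselves.

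Gene reads per library lay between 21.9 M and 33.6 M, and 3 reads, taken as the floor for counting error only, equal 2.46 to 3.75 normalized counts. CDKN1A, the p53-induced cell cycle inhibitor, was 3.90 ± 0.04 (log2, SE) higher at 12 h than in DMSO, and MDM2, itself a p53 target, 3.13 ± 0.06 higher. All 12 fibroblast markers checked were present. The defining epithelial marker CDH1, the immune markers PTPRC and CD14, and the endothelial markers CDH5, CLDN5 and ERG stayed below 7 normalized counts in every library. Other markers of these lists were present, with summed epithelial counts of 2712 to 2748 in DMSO, 3282 to 3470 at 6 h, 2905 to 2926 at 9 h and 2483 to 2582 at 12 h. Within that sum, at 12 h KRT18 fell by 0.26 and KRT19 rose by 0.71 on the log2 scale. There were also summed endothelial counts, mostly TEK, of 1438 to 1507 at 12 h and 1975 to 2076 in DMSO, and 949 and 901 normalized counts of CD68, a macrophage marker, at 12 h against 894 and 736 in DMSO. Their part in the results below was not tested. The 2 DMSO libraries differed from each other more than the other pairs did, with an SD of log2 differences of 0.174 over genes with a mean of at least 50, against 0.118 to 0.129 for the 3 Nutlin-3a pairs.

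The sequences below carry the main results. The first set holds mature miRNAs from host genes among the members, 5′ to 3′, as RefSeq gives them for GRCh38.p14, with the seed (bases 2 to 8) in capitals. The first 9 come from hosts that rose at one or more times (MIR34AHG, MIR22HG, MIR210HG, MIR100HG for the following 3, MIR31HG, MIR193BHG and MIR4458HG), and the last 3 from hosts that fell (MIR155HG and MIR17HG).
hsa-miR-34a-5p: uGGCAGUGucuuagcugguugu
hsa-miR-22-3p: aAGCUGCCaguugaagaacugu
hsa-miR-210-3p: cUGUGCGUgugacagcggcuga
hsa-miR-100-5p: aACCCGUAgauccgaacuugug
hsa-miR-125b-5p: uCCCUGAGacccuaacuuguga
hsa-let-7a-5p: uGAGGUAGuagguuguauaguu
hsa-miR-31-5p: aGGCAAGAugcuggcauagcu
hsa-miR-193b-3p: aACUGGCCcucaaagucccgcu
hsa-miR-4458: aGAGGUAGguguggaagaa
hsa-miR-155-5p: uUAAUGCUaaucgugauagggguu
hsa-miR-17-5p: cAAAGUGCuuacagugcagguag
hsa-miR-20a-5p: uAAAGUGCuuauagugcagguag
Among these, let-7a-5p and miR-4458 share a seed, and so do miR-17-5p and miR-20a-5p, which come from the same host. The let-7a-5p sequence is also cut from other host transcripts, MIRLET7BHG among them, so a host level does not give the level of its miRNA.

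The second set is promoter sequence from RefSeq's GRCh38.p14 table, which spans 250 bases before to 50 bases after each gene's annotated start. It is shown because LINC01759 had the largest rise of all tested members at 12 h that averaged 50 or more normalized counts. LINC01759 passed the filter on low values only through its Nutlin-3a libraries. RefSeq lists this gene as LNCTAM34A, with GUARDIN and TP53LC18 among its synonyms, on the plus strand of chromosome 1 from 9182204 to 9192086. MIR34AHG runs the other way, from 9148011 to 9182338 on the minus strand, so the 2 genes are head to head and share 135 bases. Capitals mark matches to the p53 consensus decamer, the 10-base element of which p53 binds a pair. The consensus reads the same on both strands, and no mismatch was allowed. The LINC01759 window is chr1:9181954-9182253, plus strand.
LINC01759: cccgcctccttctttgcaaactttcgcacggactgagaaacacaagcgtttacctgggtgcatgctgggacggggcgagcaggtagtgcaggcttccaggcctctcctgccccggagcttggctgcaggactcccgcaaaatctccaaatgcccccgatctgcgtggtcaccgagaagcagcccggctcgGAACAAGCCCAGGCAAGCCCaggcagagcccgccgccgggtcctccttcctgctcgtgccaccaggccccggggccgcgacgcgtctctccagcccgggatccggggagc
Here 2 decamers stand side by side with no base between them, at positions -60 and -50 from the annotated start. A pair of decamers at most 13 bases apart was found in 10 of all 35116 promoters of the table (0.0285%) and, among 356 tested members with a promoter in it, in LINC01759 alone. MIR34AHG's own window, chr1:9182289-9182588 on the minus strand, held none. That window reaches only 50 bases into MIR34AHG, and the pair of decamers lies further inside that gene. By position the pair therefore cannot be assigned to LINC01759 alone.

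At least 1 decamer stood in 2329 of all 35116 promoters (6.63%) and in 26 of the 356 tested members' promoters (7.30%). Among members that rose at 12 h, 9 of 44 promoters held one (20.5%), beside 124 of 1993 promoters of all genes that rose (6.22%). Of the members with no call at 12 h, 16 of 289 held one (5.54%), and of those that fell, 1 of 23 (4.35%). At 6 h the counts were 8 of 53 members that rose and 18 of 285 with no call, and at 9 h 7 of 36 and 18 of 297. These are descriptions without a test, and a match is not evidence of binding. The other 8 members that rose at 12 h with a decamer are shown as stretches around it, each on its gene's strand. LINC01173, among them, had under 10 normalized counts in both DMSO libraries, so it was tested only because it was high after Nutlin-3a.
LINC01629, chr14:76959428-76959487, plus strand: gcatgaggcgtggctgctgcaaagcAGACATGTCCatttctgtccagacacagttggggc
LINC01679, chr21:43362300-43362338, minus strand: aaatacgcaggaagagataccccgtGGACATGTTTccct
LINC01119, chr2:46827697-46827756, plus strand: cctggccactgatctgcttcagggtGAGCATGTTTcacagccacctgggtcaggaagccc
LINC00704, chr10:4678143-4678202, minus strand: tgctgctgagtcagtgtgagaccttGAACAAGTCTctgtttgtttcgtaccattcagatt
LINC01173, chr2:234682628-234682687, plus strand: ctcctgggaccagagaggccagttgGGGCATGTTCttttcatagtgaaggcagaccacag
LINC00346, chr13:110870413-110870472, minus strand: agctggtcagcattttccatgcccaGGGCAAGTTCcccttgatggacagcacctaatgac
ST20-AS1, chr15:79922578-79922637, plus strand: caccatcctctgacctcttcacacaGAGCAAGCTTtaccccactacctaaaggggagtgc
MIRLET7DHG, chr9:94259346-94259405, minus strand: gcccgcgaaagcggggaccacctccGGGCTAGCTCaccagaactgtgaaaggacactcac

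Long non-coding RNA genes more often rose than fell after Nutlin-3a. Over all genes falls outnumbered rises in the reported fit, but not under every scaling. By limma's test with an adjusted p under 0.05, 72 of the 479 tested members rose at 6 h (15.0%) and 26 fell (5.43%), beside 16.1% and 20.6% of all tested genes. At 9 h, 50 rose and 25 fell, beside 16.2% and 19.1% of all genes. At 12 h, 59 rose and 29 fell, beside 18.5% and 21.4% of all genes. The share of members that rose was near the background at 6 h and below it at 9 and 12 h, and the share that fell was far below it at each time. The groups did not overlap for any called member. With 2 libraries a group this is no support beyond the test, and the share over all called genes is not given here. In bulk RNA, fewer cells making a transcript and less of it per cell cannot be told apart. Of all genes called at 12 h, 46.4% rose in the reported fit, 51.1% with TMM scaling, 51.6% by edgeR and 57.6% with quantile normalization, and at 9 h 54.9% rose with quantile normalization, against 45.8% in the reported fit. The members' counts at 12 h with quantile normalization were 58 and 30. Of the members that rose, 7 at 6 h, 5 at 9 h and 6 at 12 h had under 10 normalized counts in both DMSO libraries, so they were tested only because they were high after Nutlin-3a. Members with 1 DMSO library under 10 also needed a Nutlin-3a library to pass, LINC01759 and RDH10-AS1 among them. They are not in these counts.

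Members are expressed at low levels, which sets what the test can see. The median of the mean level was 31.9 normalized counts for tested members and 582 for all tested genes, and the median SE of a log2 change was 0.273 for members and 0.079 for all genes. Among the 162 members with a mean of at least 50, 42 rose (25.9%) and 17 fell (10.5%) at 6 h. Of the 11461 genes that passed the same cut, 18.0% rose and 24.3% fell. The median SE was still 0.142 for these members and 0.070 for those genes, so the cut does not make the 2 sets alike for the test. At 9 h, 36 of the 162 rose (22.2%) and 21 fell, beside 18.5% and 22.6%. At 12 h, 38 rose (23.5%) and 22 fell (13.6%), beside 21.0% and 25.1%. Median log2 changes of the tested members were 0.11, 0.10 and 0.08 at 6, 9 and 12 h, and those of all genes -0.01, 0.01 and 0.01. In the authors' deposited table of DESeq2 tests, 28 of all 1016 listed members rose and 14 fell at 6 h. At 9 h the counts were 23 and 13, and at 12 h 28 and 19, fewer calls with rises again outnumbering falls. Of all 18216 genes, 1607 rose and 2254 fell there at 6 h, 1587 and 2180 at 9 h. At 12 h these were 1868 and 2502. The members' rising and falling shares in that table were both below those of all genes at each time.

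**Figure D1:**
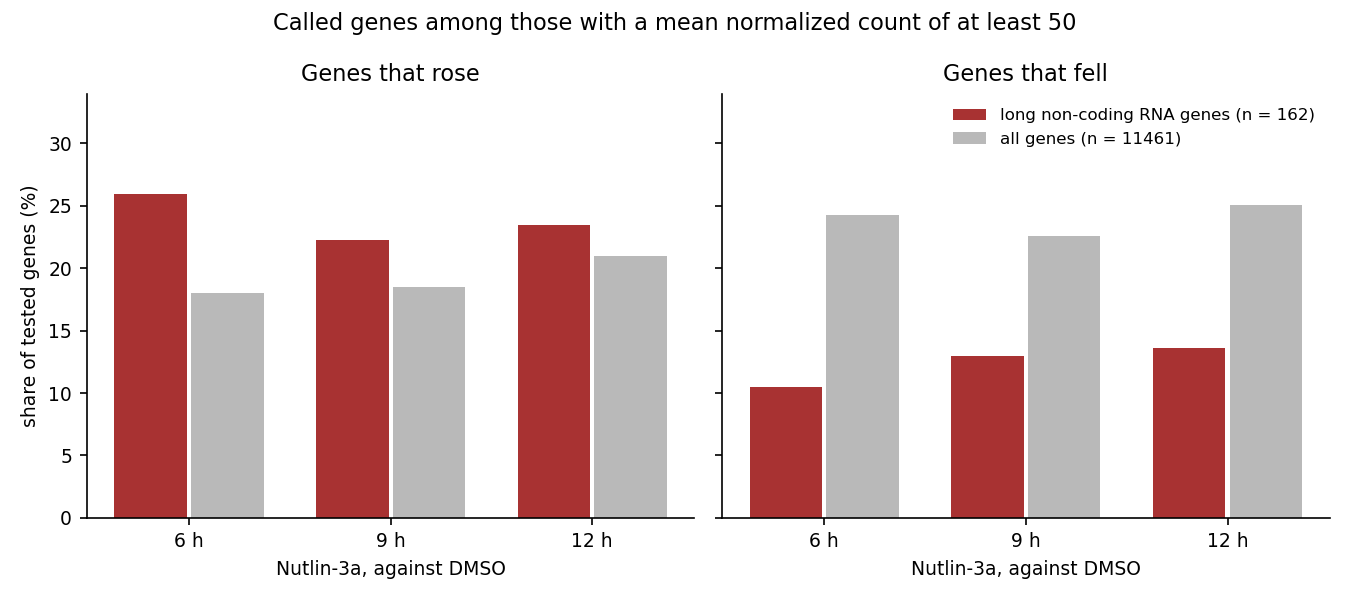
Share of genes called as risen (left) and fallen (right) after 6, 9 and 12 h of Nutlin-3a against DMSO, in percent, for long non-coding RNA genes (n = 162) and all genes (n = 11461) with a mean of at least 50 normalized counts. The members' share that fell lies below that of all genes at each time, with 10.5% beside 24.3% at 6 h. The median SE of a log2 change was 0.142 for these members and 0.070 for all genes shown.

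The kinds of gene were counted beside the same shares of all genes, 16.1% rising and 20.6% falling at 6 h and 18.5% and 21.4% at 12 h, with no test of a difference between kinds. Of the 128 tested LINC genes, 23 rose at 6 h (18.0%) and 6 fell (4.69%), and 19 (14.8%) and 6 (4.69%) at 12 h. Of the 303 antisense genes, 37 rose at 6 h (12.2%) and 15 fell (4.95%), and 28 (9.24%) and 14 (4.62%) at 12 h. The rising shares of both were near or below those of all genes, and the falling shares below. All 5 tested members that the rule names outside these classes, NEAT1, MALAT1, MEG3, PVT1 and LINC-PINT, rose at each time. Of the 20 snoRNA hosts, GAS5 included, none rose at 6 h and 3 fell, a falling share below that of all genes, and 1 rose and 6 fell at 12 h, a falling share above it. Of the 5 tested intronic genes none was called by limma, and none had an unadjusted p under 0.05.

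Members took 0.250 to 0.294% of all gene counts, of which MALAT1 alone had 0.0315 to 0.0530% of all gene counts. Per kilobase of exon in GENCODE v29, the highest mean levels were those of LINC00674 (2132 normalized counts per kb), LRRC75A-AS1 (1681), MALAT1 (1394), MIR31HG (832) and SNHG5 (741). LRRC75A-AS1, which RefSeq names SNHG29, is a snoRNA host too, and it did not pass the test at any time, with 6372 and 6377 normalized counts at 12 h against 6038 and 6203 in DMSO. LINC00674 rose only at 9 h by the test, by 0.18 ± 0.06 (log2, SE), and its level at 12 h was not shown to differ from that at 6 h (0.11 ± 0.06, adjusted p = 0.158).

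LINC01759 and MIR34AHG, the head-to-head pair at the miR-34a locus, both stood above DMSO at all 3 times. MIR34AHG is the primary transcript of miR-34a, a miRNA that p53 induces and that restrains proliferation. LINC01759 had 7.82 and 10.7 normalized counts in DMSO, 68.8 and 61.5 at 6 h, 88.6 and 79.5 at 9 h, and 101 and 99.9 at 12 h. Its level stepped up at each time without overlap between groups. The log2 changes over DMSO were 2.70 ± 0.21 (SE) at 6 h, 3.06 ± 0.21 at 9 h and 3.32 ± 0.21 at 12 h. With 1 DMSO library under 10, LINC01759 passed the filter on low values only through its Nutlin-3a libraries. No test against DMSO is therefore given for it. MIR34AHG had 231 and 229 normalized counts in DMSO, 660 and 654 at 6 h, 520 and 597 at 9 h, and 590 and 585 at 12 h. It was highest at 6 h and stayed well above DMSO. Its log2 changes were 1.51 ± 0.08, 1.27 ± 0.08 and 1.35 ± 0.08 (adjusted p = 1.16e-11, 7.07e-11 and 2.04e-11), and its level at 12 h was not shown to differ from that at 6 h (-0.16 ± 0.08, adjusted p = 0.14). LINC01759 was 0.62 ± 0.21 higher at 12 h than at 6 h (adjusted p = 0.0257), a call lost when any of the 6 h or 12 h libraries was left out and by DESeq2. The 2 transcripts overlap, so reads of the shared stretch depend on the strand setting of the counting, which is not given in the sources used here.

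NEAT1, the RNA scaffold of paraspeckles, rose most at 6 h. It had 1116 and 1290 normalized counts in DMSO, 2833 and 2673 at 6 h, 1863 and 1860 at 9 h, and 2151 and 2314 at 12 h. All Nutlin-3a libraries lay above both DMSO libraries, with log2 changes of 1.20 ± 0.06 (SE), 0.63 ± 0.06 and 0.89 ± 0.06 (adjusted p = 1.3e-11, 1.15e-07 and 4.38e-10). At 12 h the level was 0.30 ± 0.06 below that at 6 h (adjusted p = 0.00111). LINC-PINT, a p53-induced RNA described to act with Polycomb proteins, had the same high point, with 268 and 269 normalized counts in DMSO, 468 and 435 at 6 h, 334 and 336 at 9 h, and 331 and 364 at 12 h. Its log2 changes were 0.75 ± 0.09, 0.32 ± 0.09 and 0.37 ± 0.09, and it was lower at 12 h than at 6 h by the test (-0.38 ± 0.09, adjusted p = 0.00225).

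The mRNAs for paraspeckle proteins were counted from a list of 18 genes, all tested. At 12 h 17 fell and none rose, at 9 h 16 and none, and at 6 h 12 fell and 1 rose, beside 21.4%, 19.1% and 20.6% of all genes that fell at 12, 9 and 6 h. At 6 h, where NEAT1 was highest, PSPC1, which encodes a core paraspeckle protein, rose by 0.19 ± 0.06 (log2, SE). At the same time SFPQ, another, had no call (0.05 ± 0.04), and NONO, also on the list, fell (-0.19 ± 0.04). The median log2 change of the 18 genes at 12 h was -0.33, beside 0.01 for all genes. The smallest p-values at 12 h belonged to RBMX (-0.70), NUDT21 (-0.66) and CPSF7 (-0.53). RBMX, a nuclear RNA-binding protein, had 3787 and 3755 normalized counts at 12 h against 6148 and 6117 in DMSO.

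PVT1, MEG3 and MALAT1 each had their own course. PVT1, the neighbour of MYC on chromosome 8, had 108 and 113 normalized counts in DMSO, 205 and 214 at 6 h, 205 and 228 at 9 h, and 221 and 197 at 12 h. It reached its raised level by 6 h, with log2 changes of 0.92 ± 0.11 (SE), 0.96 ± 0.11 and 0.91 ± 0.11. MEG3, an imprinted RNA expressed from the maternal allele, had 1122 and 1148 normalized counts in DMSO, 1546 and 1385 at 6 h, 1669 and 1625 at 9 h, and 1841 and 1958 at 12 h. It was higher at 12 h than at 6 h by 0.38 ± 0.06 (adjusted p = 7.83e-05), and its log2 change over DMSO at 12 h was 0.74 ± 0.06 (adjusted p = 3.93e-09).

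MALAT1, a very abundant RNA of nuclear speckles, had 8584 and 11045 normalized counts in DMSO, 12910 and 12463 at 6 h, 12655 and 12429 at 9 h, and 13835 and 14526 at 12 h. Its 2 DMSO libraries lay further apart than any other pair, yet both were below all Nutlin-3a libraries, and the log2 change at 12 h was 0.54 ± 0.07 (adjusted p = 4.39e-06). Without an intensity trend in the fit, MALAT1 lost its calls at 6 and 9 h. PANDAR, an RNA from the CDKN1A promoter region described as induced by DNA damage, was too low in every library to be tested. It had 2.93 and 0 normalized counts in DMSO, 8.76 and 2.88 at 6 h, 3.98 and 9.14 at 9 h, and 3.27 and 6.24 at 12 h.

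Of 12 long non-coding RNA genes listed for known links to p53, 9 are in the table and 8 were tested. At 12 h 6 rose and none fell, beside 18.5% and 21.4% of all genes. At 9 h 6 rose and none fell, beside 16.2% and 19.1%, and at 6 h 5 and none, beside 16.1% and 20.6%. The list's median log2 change at 12 h was 0.82, beside 0.01 for all genes. The list was drawn up with earlier results of these data known and holds NEAT1, MIR34AHG, MEG3, PVT1 and LINC-PINT. TP53TG1, which is on the list though not a member by its symbol, had 190 and 205 normalized counts in DMSO, 225 and 224 at 6 h, 310 and 330 at 9 h, and 396 and 405 at 12 h. It rose at 9 h and 12 h (1.02 ± 0.09 at 12 h). TUG1 and GAS5 were the 2 tested genes of the list without a call at any time.

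**Figure D2:**
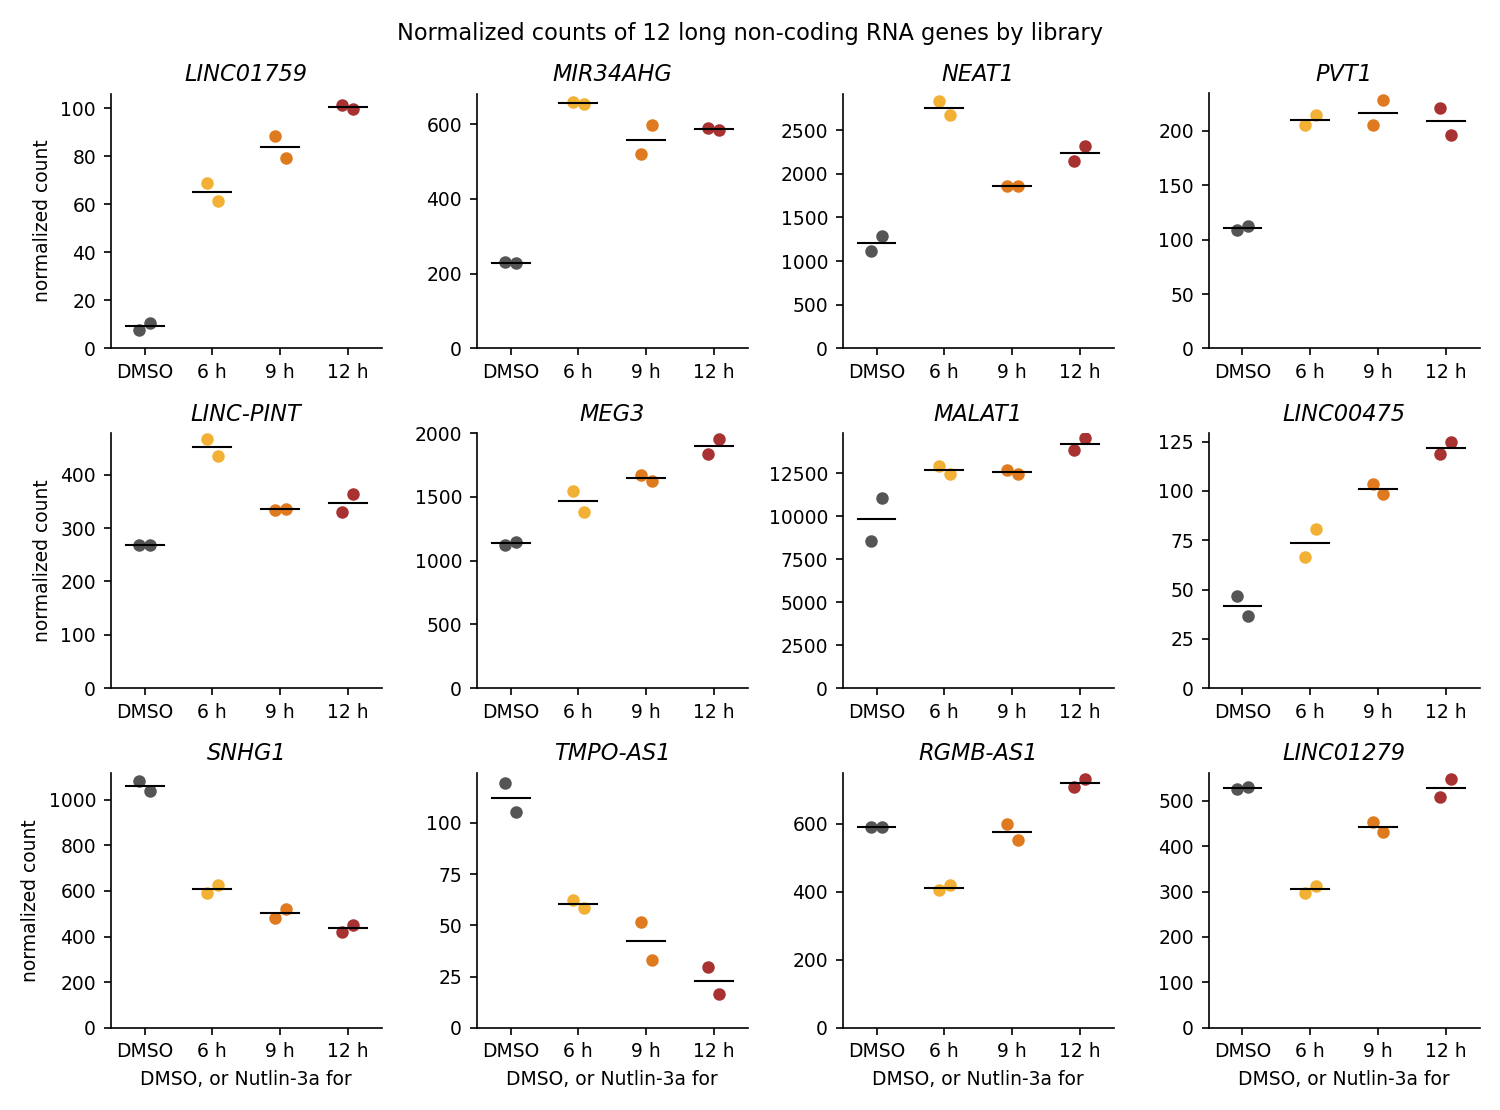
Normalized counts of 12 members in each library, in DMSO and after 6, 9 and 12 h of Nutlin-3a; points are libraries, black lines the mean of 2, and each panel has its own axis from 0. LINC01759, LINC00475 and MEG3 step up with time, NEAT1 and LINC-PINT are highest at 6 h, SNHG1 and TMPO-AS1 step down, and RGMB-AS1 and LINC01279 are low at 6 h only.

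RefSeq gives 9 members a synonym of the form TP53LC with a number. LINC01759 (TP53LC18), NEAT1 and PVT1 are among them. UNC5B-AS1, another, lies antisense to UNC5B, which encodes a netrin receptor. UNC5B-AS1 had 0.98 and 0 normalized counts in DMSO, a single read in all, 11.3 and 7.69 at 6 h, 8.96 and 15.5 at 9 h, and 12.3 and 12.5 at 12 h. All Nutlin-3a libraries lay above both DMSO libraries. It passed the filter on low values only through its Nutlin-3a libraries, so no test is given for it. SNHG10 fell at 9 and 12 h. LINC00324, LINC00526 and RBPMS-AS1 had no call at any time, and MRPL23-AS1 was too low to test.

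Among other LINC genes with a mean of at least 50, LINC00475, LINC01679 and LINC00865 rose at all 3 times. LINC00475 had 46.9 and 36.5 normalized counts in DMSO, 66.3 and 80.7 at 6 h, 104 and 98.7 at 9 h, and 119 and 125 at 12 h, a log2 change of 1.53 ± 0.17 (SE) at 12 h. LINC01679 had 30.3 and 35.5 in DMSO, 96.3 and 87.4 at 6 h, 92.6 and 74.9 at 9 h, and 68.7 and 61.4 at 12 h. The first kept climbing, with 12 h above 6 h by 0.73 ± 0.17 (adjusted p = 0.00243), and the second was highest at 6 h, with 12 h below 6 h by 0.49 on the log2 scale (adjusted p = 0.0453). LINC00865 had 52.4 and 76.0 normalized counts at 12 h against 35.2 and 27.9 in DMSO (0.99 ± 0.23). No function is known for these genes with enough certainty to state.

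LINC00987 fell at all 3 times, LINC00997 at 9 and 12 h, and LINC00641 at 6 and 12 h. LINC00987 had 483 and 468 normalized counts at 12 h against 1002 and 674 in DMSO, and its DMSO pair was the widest among the LINC genes named here. The log2 change at 12 h was -0.79 ± 0.12 (SE). LINC00997 had 72.0 and 76.0 normalized counts at 12 h against 130 and 128 in DMSO (-0.79 ± 0.14). LINC00641 had 334 and 265 in DMSO, 165 and 179 at 6 h, 272 and 233 at 9 h, and 224 and 207 at 12 h, lowest at 6 h. LINC00673 fell at 12 h alone by the test, with 80.2 and 73.9 normalized counts at 12 h against 113 and 103 in DMSO, and lay 0.54 ± 0.15 lower at 12 h than at 6 h (adjusted p = 0.0106).

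LINC01279 was low at 6 h and back at the DMSO level at 12 h. It had 526 and 530 normalized counts in DMSO, 298 and 311 at 6 h, 452 and 431 at 9 h, and 509 and 548 at 12 h. The log2 change was -0.79 ± 0.08 (SE) at 6 h (adjusted p = 1.19e-07) and 0.00 ± 0.08 at 12 h (adjusted p = 0.989). RefSeq now lists this symbol as a synonym of CCDC80, a protein-coding gene of the extracellular matrix, so its standing as a separate non-coding gene is uncertain. CCDC80 had 7734 and 7451 normalized counts in DMSO, 5486 and 5756 at 6 h, 6557 and 6593 at 9 h, and 7123 and 7395 at 12 h, with a log2 change of -0.43 ± 0.05 at 6 h.

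Most changes of 2-fold or more were of low members, and so were most tested members, of which 162 had a mean of at least 50. At 6 h, 21 of the 479 tested members rose and 4 fell by at least 2-fold among those called. Of these, 16 and 4 had a mean under 50. At 12 h the counts were 13 and 8, with 10 and 5 under 50. Of all 14074 tested genes, 235 rose and 190 fell by at least 2-fold at 6 h, and 234 and 510 at 12 h. Of these, 118 and 137 at 6 h and 127 and 424 at 12 h had a mean of at least 50. The following were chosen after their values were seen. LINC01614 had 8.80 and 9.67 normalized counts in DMSO, 45.0 and 44.2 at 6 h, 7.97 and 11.9 at 9 h, and 13.1 and 2.08 at 12 h. It was high at 6 h alone. LINC01614 passed the filter on low values only through its Nutlin-3a libraries, so no test is given for it here. LINC01629, with a decamer in its promoter, had 16.6 and 12.9 normalized counts in DMSO, 65.0 and 52.9 at 6 h, 50.8 and 49.3 at 9 h, and 35.2 and 35.4 at 12 h. It was above DMSO throughout and below its 6 h level at 12 h (log2 change -0.72 ± 0.23, SE, adjusted p = 0.024).

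Of 18 tested host genes of miRNAs, 7 rose at 6 h (38.9%) and 2 fell (11.1%), beside 16.1% and 20.6% of all genes. At 9 h 5 rose (27.8%) and 3 fell (16.7%), beside 16.2% and 19.1%, and at 12 h 6 rose (33.3%) and 3 fell (16.7%), beside 18.5% and 21.4%. The falling shares at 9 and 12 h were near those of all genes. MIR22HG, the host of miR-22, had 646 and 626 normalized counts in DMSO, 963 and 1041 at 6 h, 994 and 1030 at 9 h, and 1096 and 1036 at 12 h. MIR210HG, host of the hypoxia-linked miR-210, had 144 and 148 in DMSO, 218 and 231 at 6 h, 223 and 207 at 9 h, and 251 and 242 at 12 h. Both were near their highest level by 6 h, with log2 changes at 12 h of 0.74 ± 0.07 (SE) for MIR22HG and 0.75 ± 0.10 for MIR210HG.

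MIR100HG, which carries miR-100, let-7a-2 and miR-125b-1, rose at each time and most at 12 h, and MIR31HG, from the miR-31 locus, rose at 12 h alone by the test. MIR100HG had 3897 and 3867 normalized counts in DMSO, 4600 and 4371 at 6 h, 4473 and 4484 at 9 h, and 5452 and 5488 at 12 h. MIR31HG had 534 and 577 in DMSO, 514 and 591 at 6 h, 627 and 597 at 9 h, and 814 and 704 at 12 h. The 12 h libraries stood above all others for both genes. The difference between 12 h and 6 h was 0.29 ± 0.05 (SE) for MIR100HG (adjusted p = 6.61e-05) and 0.46 ± 0.09 for MIR31HG (adjusted p = 0.0003). MIR4458HG rose at 6 h only by the test (0.41 ± 0.15, adjusted p = 0.0419), a call lost when any DMSO or 6 h library was left out.

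MIR155HG, the primary transcript of miR-155, fell at each time. It had 140 and 136 normalized counts in DMSO, 72.5 and 71.1 at 6 h, 114 and 89.5 at 9 h, and 88.4 and 99.9 at 12 h, lowest at 6 h. Its log2 changes were -0.93 ± 0.15 (SE), -0.45 ± 0.15 and -0.55 ± 0.15. MIR17HG and MIR924HG, both with a mean under 50 and chosen after their values were seen, fell too. MIR17HG, the transcript of the proliferation-linked miR-17 cluster, had 60.6 and 50.5 in DMSO, 30.0 and 40.4 at 6 h, 23.9 and 17.4 at 9 h, and 32.7 and 25.0 at 12 h. Its call at 12 h (-0.93 ± 0.26) was lost without 12 h replicate 2. MIR924HG had 8.18 and 12.5 normalized counts at 12 h against 50.8 and 66.6 in DMSO (-2.41 ± 0.29).

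MIR193BHG, MIR181A2HG and MIRLET7DHG, chosen in the same way, complete the hosts with a call. MIR181A2HG had 15.6 and 19.3 normalized counts in DMSO, 35.0 and 38.4 at 6 h, 20.9 and 19.2 at 9 h, and 13.9 and 13.5 at 12 h. It was raised at 6 h alone (1.03 ± 0.29, SE), and lower at 12 h than at 6 h by the test (adjusted p = 0.00129). MIR193BHG had 46.3 and 45.2 at 6 h against 19.5 and 27.9 in DMSO, and at 9 h its call was lost under most alternatives. MIRLET7DHG rose at 12 h (0.64 ± 0.24), a call lost by DESeq2, with quantile normalization and without either 12 h library. Of 9 miRNA-processing genes tested, 4 fell and none rose at 12 h, beside 21.4% and 18.5% of all genes, and 4 fell and 1 rose at 6 h, beside 20.6% and 16.1%. XPO5, the exporter of miRNA precursors, DGCR8, the partner of DROSHA, and DROSHA itself had the smallest p-values at 12 h, with log2 changes of -0.55, -0.64 and -0.38.

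The snoRNA hosts were led downward by SNHG1. Its introns carry several box C/D snoRNAs, which guide the methylation of ribosomal RNA. SNHG1 had 1084 and 1038 normalized counts in DMSO, 589 and 626 at 6 h, 483 and 523 at 9 h, and 421 and 452 at 12 h. Every step was downward, and the groups did not overlap. The log2 changes were -0.80 ± 0.07 (SE), -1.08 ± 0.07 and -1.28 ± 0.07 (adjusted p = 3.65e-08, 2.79e-10 and 1.25e-11), and 12 h lay 0.48 ± 0.07 below 6 h (adjusted p = 4.71e-05).

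SNHG3 fell at each time, with 427 and 435 normalized counts at 12 h against 635 and 604 in DMSO (-0.52 ± 0.08, SE). SNHG17 had 158 and 161 at 12 h against 214 and 280 in DMSO (-0.62 ± 0.13), and SNHG15 had 146 and 136 at 12 h against 200 and 199 in DMSO (-0.50 ± 0.11). SNHG17 fell at 9 and 12 h, and SNHG15 at 12 h alone by the test. SNHG10 had 54.8 and 53.1 normalized counts at 12 h against 76.2 and 81.6 in DMSO (-0.54 ± 0.18), a call lost by DESeq2 and without some single libraries. SNHG12 fell at 6 and 9 h (-0.43 ± 0.15 and -0.41 ± 0.15) and SNHG7 at 9 h (-0.28 ± 0.08). The call of SNHG16 at 12 h (-0.22 ± 0.08, adjusted p = 0.0429) was lost under most alternatives, TMM scaling and edgeR among them. SNHG18 was the only snoRNA host called as risen, at 12 h, with 419 and 418 normalized counts against 384 and 313 in DMSO (0.27 ± 0.10), and that call was lost by DESeq2 and without either 12 h library.

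GAS5, SNHG5, SNHG6, SNHG8, SNHG9, SNHG11 and SNHG19 had no call at any time. GAS5, a host of box C/D snoRNAs whose RNA is cleared by nonsense-mediated decay, had 1060 and 1075 normalized counts at 12 h against 983 and 1196 in DMSO (-0.02 ± 0.07, SE). SNHG5 had 2040 and 2287 at 12 h against 1735 and 2134 in DMSO (0.17 ± 0.07, adjusted p = 0.0842). Both 12 h libraries of GAS5 lay between the 2 DMSO libraries, and those of SNHG5 overlapped them, which does not show that either was unchanged. SNHG4, SNHG20, SNHG21 and SNHG25, with means under 50, had no call either.

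Genes of the pathways that snoRNA hosts touch were counted from lists, to be read beside the 21.4% of all genes that fell and the 18.5% that rose at 12 h, and 20.6% and 16.1% at 6 h. Of 8 tested genes for snoRNP core proteins, 5 fell and none rose at 12 h, with a median log2 change of -0.34, and 5 fell and none rose at 6 h. NOP56, DKC1 and NOP58, core proteins of the particles that modify ribosomal RNA, had log2 changes at 12 h of -0.80, -0.71 and -0.56. Of 10 genes for nonsense-mediated decay factors, 5 fell and none rose at 12 h, while 2 rose and 1 fell at 6 h, the rising share then being near that of all genes. UPF3B, UPF1 and SMG5 led it at 12 h with -0.67, -0.32 and -0.30. Among 28 other genes whose RNAs start with a 5′ terminal oligopyrimidine tract, as that of GAS5 does, 2 rose and 4 fell at 12 h, with a median of -0.03. NPM1 (-0.42), RPL10 (0.28) and RPL13A (-0.21) had the smallest p-values there. With quantile normalization 7 of the 28 fell at 12 h, and without DMSO replicate 2 11 fell and 5 rose.

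**Figure D3:**
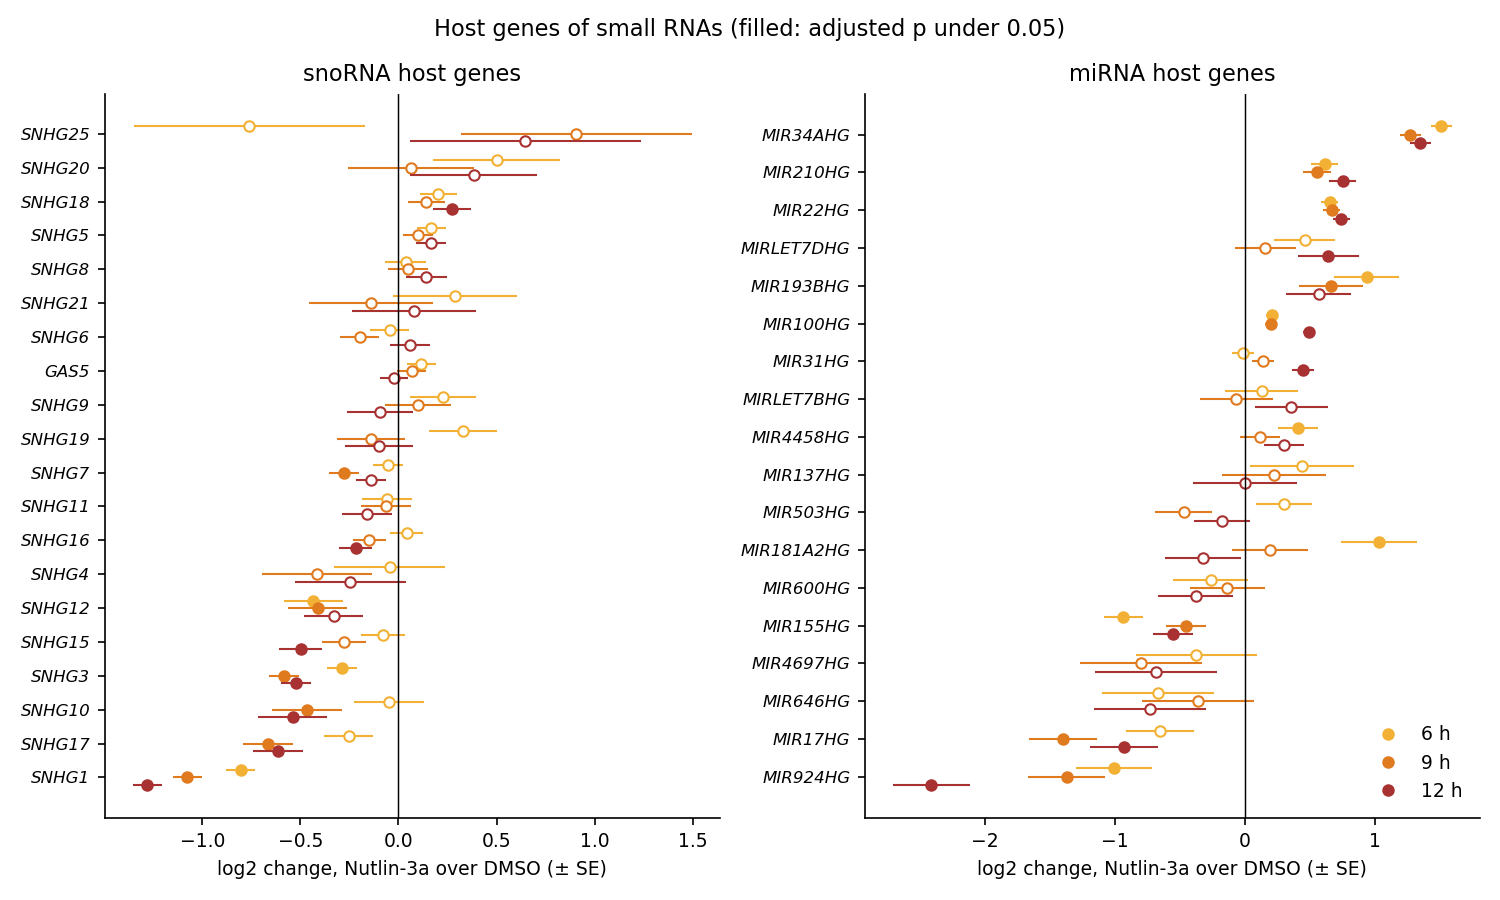
Log2 change over DMSO with its SE at 6, 9 and 12 h of Nutlin-3a for the 20 tested snoRNA host genes (left) and the 18 tested miRNA host genes (right); filled points have an adjusted p under 0.05. SNHG1 has the largest fall of the snoRNA hosts at 12 h (-1.28), and MIR34AHG the largest rise of the miRNA hosts (1.35).

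Antisense and intronic members were set beside their partners, the gene named before -AS or -IT. A tested partner existed for 284 of them, and GENCODE v29 places 219 of these pairs on opposite strands with overlap and 33 as divergent neighbours without overlap. Another 4 overlap on the same strand, and 28 could not be matched. The library kit marks the strand. How counting treated it is not given in the sources used here, and reads of an antisense gene and of its partner therefore cannot be told apart with certainty. At 12 h, 39 of the 284 members and 118 of their partners were called, and 19 of the 39 had a partner with no call. Partners had no call for 22 of 49 called members at 6 h and for 17 of 33 at 9 h. At 12 h, 13 pairs rose together, 4 fell together and 3 moved in opposite directions. At 6 h the counts were 18, 5 and 4, and at 9 h 9, 3 and 4. By DESeq2, 5 pairs moved the same way and 1 opposite ways at 12 h. Across the 284 pairs, which share libraries and often overlap, Pearson's r of the log2 changes was 0.42 at 6 h, 0.37 at 9 h and 0.35 at 12 h, given as a description.

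TMPO-AS1 fell with its partner TMPO, which encodes the lamina-associated polypeptide LAP2. TMPO-AS1 had 119 and 105 normalized counts in DMSO, 62.5 and 58.6 at 6 h, 51.8 and 32.9 at 9 h, and 29.5 and 16.6 at 12 h. Its log2 change was -0.88 ± 0.25 (SE) at 6 h, -1.42 ± 0.25 at 9 h and -2.29 ± 0.25 at 12 h, the largest fall among members with a mean of at least 50. TMPO changed by -0.83 ± 0.06, -1.46 ± 0.06 and -1.97 ± 0.06. OIP5-AS1, known as Cyrano, had 492 and 481 normalized counts at 12 h against 584 and 743 in DMSO (-0.44 ± 0.09). Its partner OIP5, which encodes a centromere factor, fell by 1.41 on the log2 scale.

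RGMB-AS1 and RGMB, which encodes a co-receptor for bone morphogenetic proteins, dipped together at 6 h. RGMB-AS1 had 590 and 592 normalized counts in DMSO, 407 and 419 at 6 h, 600 and 554 at 9 h, and 709 and 734 at 12 h. It crossed from below DMSO at 6 h (-0.52 ± 0.07, SE) to above it at 12 h (0.29 ± 0.07). The difference between 12 h and 6 h was 0.80 ± 0.07 (adjusted p = 3.73e-08). RGMB changed by -0.45 ± 0.04 at 6 h and 0.17 ± 0.04 at 12 h, with 12 h above 6 h by 0.62 ± 0.04.

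FRMD6-AS1 rose at each time beside FRMD6, a Hippo pathway regulator. It had 57.3 and 56.2 normalized counts at 12 h against 28.3 and 46.2 in DMSO (0.63 ± 0.22, SE), and FRMD6 rose by 0.48 ± 0.06. Of the low pairs, chosen after their values were seen, RDH10-AS1 had 29.5 and 25.0 at 12 h against 10.8 and 6.45 in DMSO. RDH10-AS1 passed the filter on low values only through its Nutlin-3a libraries, so no test is given for it. RDH10, a retinol dehydrogenase gene, rose by 1.87 ± 0.08. USP46-AS1, now named a divergent transcript in RefSeq, had 52.8 and 56.9 normalized counts in DMSO, 90.1 and 74.0 at 6 h, 75.7 and 74.9 at 9 h, and 56.5 and 55.2 at 12 h. It rose at 6 and 9 h (0.57 ± 0.17 and 0.45 ± 0.17) and lay lower at 12 h than at 6 h by the test, as did USP46.

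Other antisense members moved apart from their partners at 12 h. EMC3-AS1 had 116 and 110 normalized counts in DMSO, 63.8 and 63.4 at 6 h, 39.8 and 30.1 at 9 h, and 28.6 and 43.7 at 12 h. It fell by 1.65 ± 0.21 (log2, SE) at 12 h, while EMC3, a subunit gene of the ER membrane complex, had 0.03 ± 0.06 (adjusted p = 0.751). UBL7-AS1 had 36.8 and 37.5 normalized counts at 12 h against 76.2 and 69.8 in DMSO (-0.96 ± 0.20), and UBL7 had -0.12 ± 0.06 (adjusted p = 0.139). NUP50-AS1 had no call (0.19 ± 0.18), while NUP50, a nuclear pore gene, fell by 0.89 on the log2 scale. The difference within a pair was not tested.

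On the upward side, RBM5-AS1 had 128 and 126 normalized counts at 12 h against 71.4 and 76.3 in DMSO (0.78 ± 0.14, SE), beside -0.08 ± 0.06 for RBM5, a splicing factor gene. STXBP5-AS1 had 53.2 and 67.6 at 12 h against 48.9 and 21.5 in DMSO (0.87 ± 0.27), beside -0.01 ± 0.05 for STXBP5. PSMG3-AS1 had 135 and 132 normalized counts in DMSO, 118 and 139 at 6 h, 181 and 180 at 9 h, and 201 and 193 at 12 h. It rose from 9 h on (0.56 ± 0.12 at 12 h), and PSMG3, a proteasome assembly chaperone gene, fell (-0.38 ± 0.09).

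The 2 further pairs called in opposite directions at 12 h were low. CCDC18-AS1 had 55.7 and 45.8 normalized counts at 12 h against 29.3 and 35.5 in DMSO, while CCDC18 fell by 1.35 on the log2 scale. CDKN2B-AS1, known as ANRIL, had 6.55 and 7.28 at 12 h against 18.6 and 17.2 in DMSO, while CDKN2B, which encodes the cell cycle inhibitor p15, rose by 0.27 ± 0.09 (SE). Both antisense calls were lost in the authors' deposited table and without either 12 h library.

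**Figure D4:**
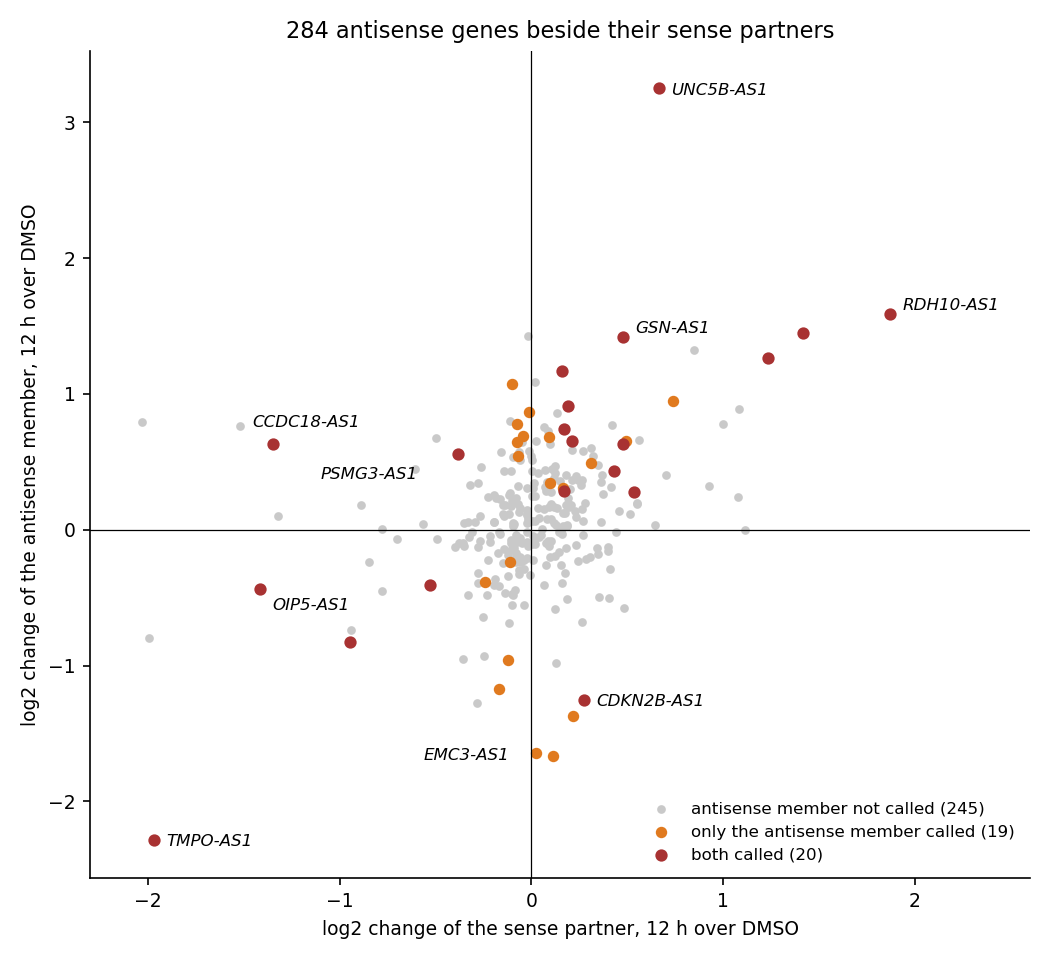
Log2 change at 12 h over DMSO of 284 antisense and intronic members (vertical axis) against that of their partners (horizontal axis). Pairs with both genes called lie mostly in the upper right and lower left, with TMPO-AS1 at the lower left end, and CCDC18-AS1, PSMG3-AS1 and CDKN2B-AS1 in the other quadrants.

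Between 12 h and 6 h, 29 members were higher and 40 lower at 12 h, beside 14.4% and 17.1% of all tested genes. With a mean of at least 50, 20 were higher (12.3%) and 23 lower (14.2%), beside 16.9% and 19.8% of all genes with that mean. No snoRNA host was higher at 12 h than at 6 h, and 6 of 20 were lower, SNHG1, SNHG3, SNHG10, SNHG15, SNHG16 and SNHG17. Among the 53 tested members named by rule, 26 differed between these times. That count is partly fixed by the rule, which takes in the largest called differences of this same comparison. Of the 26, 9 kept their call under every alternative tried, which were LINC00475, LINC01279, MEG3, MIR100HG, MIR31HG, PSMG3-AS1, RGMB-AS1, SNHG1 and TMPO-AS1.

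**Figure D5:**
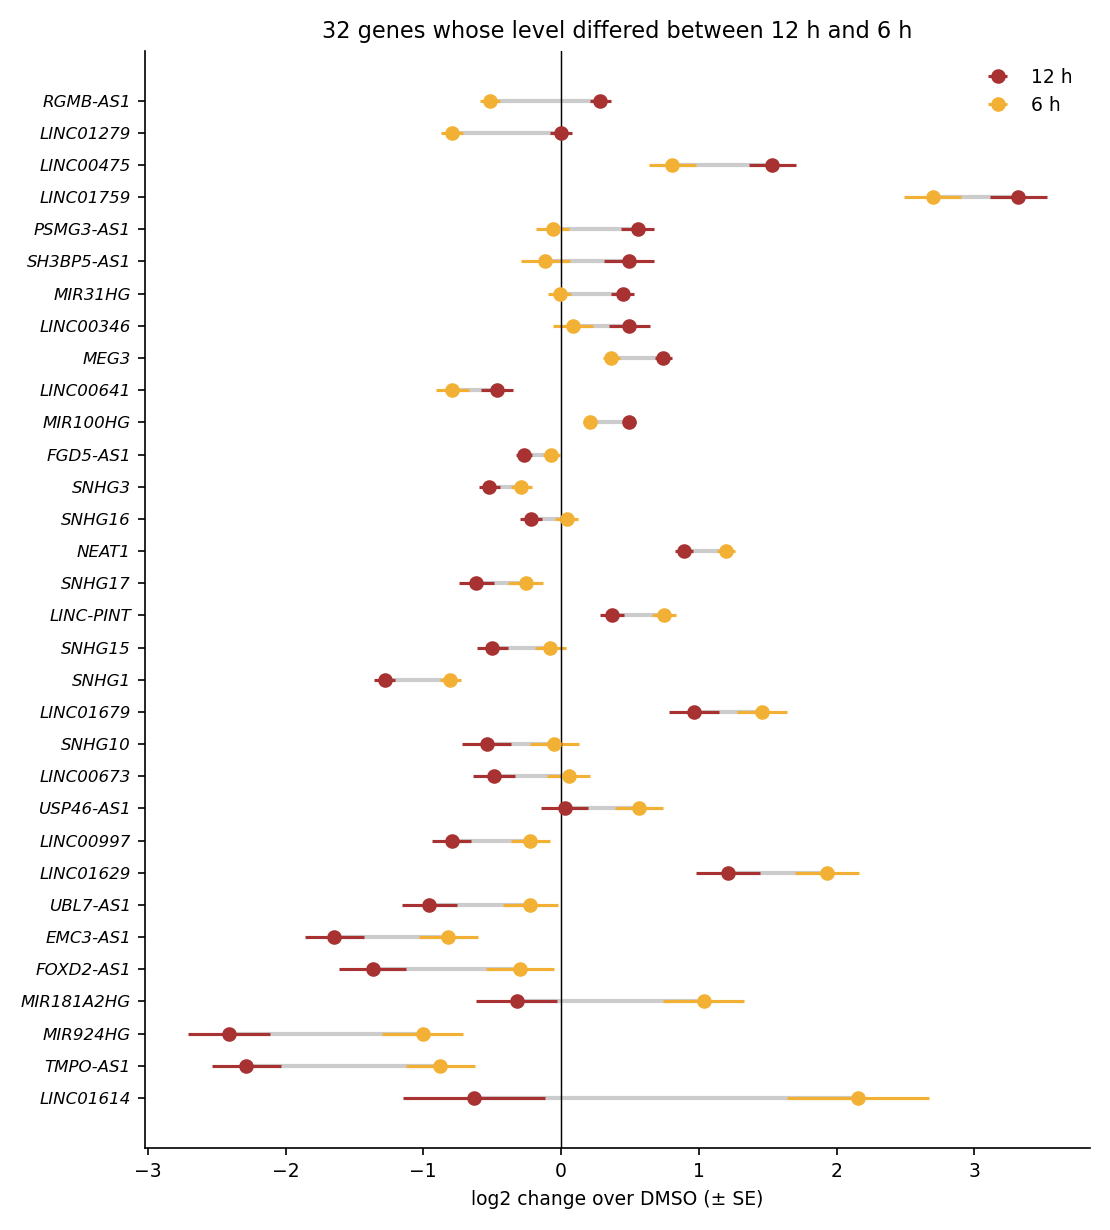
Log2 change over DMSO with its SE at 12 h and at 6 h of Nutlin-3a for 32 named members whose level differed between these 2 times by the test of 12 h against 6 h (adjusted p under 0.05). RGMB-AS1 lies on opposite sides of 0 at the 2 times (0.29 at 12 h and -0.52 at 6 h), and TMPO-AS1 and LINC01759 move further from 0 by 12 h. LINC01614 and LINC01759 passed the filter on low values only through their Nutlin-3a libraries.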

How the data were processed

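Poly(A)-selected RNA from 8 IMR90 libraries was sequenced after a strand-marking library preparation, per the labels' protocols. Per the submitters' processing notes, STAR and DESeq2 were used with the genome build hg19. Neither the counting tool nor its handling of strand nor the gene models are named in the labels. The authors deposited a normalized signal, in which each library's gene counts are scaled by its size factor, and a DESeq2 output per time, with a log2 fold change, its test score, a p-value and an adjusted p-value, whose fold changes run DMSO over Nutlin-3a and were turned round. Without a gene name were 28.2 to 29.1% of a library's total, which stayed out. Dividing by what 1 read is worth gave whole numbers for 100% of values (tolerance 1e-06), so reads could be recovered for edgeR 4.0.16 and DESeq2 1.42.0.

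The main test was limma 3.58.1 in R 4.3.3 with an intensity trend on log2(normalized count + 1), fitted once over the 8 libraries (residual df 4, prior df 15.5). This scale understates changes of low genes. Contrasts were 6, 9 and 12 h of Nutlin-3a against DMSO, and 12 h against 6 h, over the 14074 genes with at least 10 normalized counts in at least 2 libraries. P-values were adjusted by Benjamini and Hochberg over all of them, with a threshold of 0.05. "Rose", "fell" and "called" refer to this threshold. The code was tested on simulated data. With 2 libraries a group, an exact permutation test cannot give a p below 0.333.

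The members and the gene lists (p53-linked long non-coding RNAs, paraspeckle proteins, snoRNP core proteins, nonsense-mediated decay factors, miRNA processing, other 5′ terminal oligopyrimidine genes and cell type markers) were chosen with earlier results of these data known. Named members are the 6 largest rises and the 6 largest falls per comparison among called members averaging 50 or more whose groups did not overlap, the 7 genes named in the membership rule, miRNA hosts and numbered SNHG genes with a mean of at least 50, the 8 highest by mean, and the 6 antisense members with a mean of at least 50 that differ most from their partner at 12 h. Others are said to be chosen after their values were seen. Symbols were matched to RefSeq (GRCh38.p14), 868 of 1016 by symbol and 130 by synonym. By GENCODE v29, 14 tested members are annotated as transcribed pseudogenes and 2 as protein-coding.

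Alternatives were a pseudocount of 5, no filter, a mean of at least 50, TMM scaling, quantile normalization, edgeR, DESeq2, the deposited tests, no trend, only the 2 groups compared, a replicate block, and leaving out each library.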

Additional observations from a re-analysis of the deposited data

Results flagged for a closer look

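Because each group held 2 libraries, no library could be judged an outlier within its group. The 32 members below differ between 12 h and 6 h of Nutlin-3a by the direct test of those times (limma, adjusted p under 0.05), so their effects at the 2 times differ. Values are log2 differences of 12 h over 6 h, and no cause was tested.

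Among those higher at 12 h, RGMB-AS1 (0.80) and LINC01279 (0.79) had fallen at 6 h, LINC00641 (0.33) had fallen more at 6 h than at 12 h, and PSMG3-AS1 (0.62), SH3BP5-AS1 (0.61), MIR31HG (0.46) and LINC00346 (0.41) had no call at 6 h. LINC00475 (0.73), LINC01759 (0.62), MEG3 (0.38) and MIR100HG (0.29) had risen at 6 h and stood higher still at 12 h.

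Among those lower at 12 h, LINC01614 (-2.79), MIR181A2HG (-1.36) and USP46-AS1 (-0.54) had risen at 6 h and had no call at 12 h. LINC01629 (-0.72), LINC01679 (-0.49), LINC-PINT (-0.38) and NEAT1 (-0.30) were above DMSO at both times. TMPO-AS1 (-1.41), MIR924HG (-1.41), EMC3-AS1 (-0.83), SNHG1 (-0.48) and SNHG3 (-0.23) had fallen at 6 h and fell further. FOXD2-AS1 (-1.07), UBL7-AS1 (-0.73), LINC00997 (-0.57), LINC00673 (-0.54), SNHG10 (-0.49), SNHG15 (-0.42), SNHG17 (-0.36), SNHG16 (-0.26) and FGD5-AS1 (-0.20) had no call at 6 h. FOXD2-AS1, LINC00346, LINC01614, LINC01629, MIR181A2HG and MIR924HG were chosen after their values were seen. LINC01614 also passed the filter on low values only through its Nutlin-3a libraries, so its calls are no support for a change. LINC01759 passed it in the same way, so its calls against DMSO are no support for a change either.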

How the results depend on the processing

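The number of called members depended most on the test and on single libraries, and no named member changed sign in a call. By DESeq2, 30 members rose and 14 fell at 6 h, 24 and 13 at 9 h, and 29 and 19 at 12 h, and 11 were higher and 9 lower at 12 h than at 6 h. The authors' deposited table gave 28 and 14 at 6 h, 23 and 13 at 9 h, and 28 and 19 at 12 h. Over all genes DESeq2 gave 1658 rises and 2256 falls at 6 h. At 9 h these were 1633 and 2191, and at 12 h 1925 and 2507. Restricting the test to a mean of at least 50 gave 43 and 17 at 6 h, 39 rises at 12 h and 24 lower at 12 h than at 6 h, since fewer members were tested. With single libraries left out, rises ranged from 46 to 78 at 6 h, 27 to 58 at 9 h and 33 to 64 at 12 h, and falls from 19 to 26, 11 to 26 and 19 to 30. Between 12 h and 6 h, 12 to 40 were higher and 15 to 53 lower. The lowest rises came without 6 h replicate 2 (46), 9 h replicate 1 (27) and 12 h replicate 2 (33). Over all genes, rises at 6 h were 1501 without 6 h replicate 1, against 2263, at 9 h 1419 and 1428 without 9 h replicate 1 and 2, against 2273, at 12 h 1697 without 12 h replicate 2, against 2603, and genes higher at 12 h than at 6 h 1274 and 1248 without 12 h replicate 1 and 2, against 2031. The cause was not tested. Of the named members called, 20 of 28 at 6 h, 16 of 34 at 9 h, 27 of 37 at 12 h and 9 of 26 between 12 h and 6 h kept their call under all alternatives.

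Same-numbered libraries shared little deviation, with correlations of -0.152 to 0.0914. These values cannot tell whether such libraries were handled together, and the labels state no pairing. With the replicate block 71 members rose and 26 fell at 6 h, 46 and 24 at 9 h, and 60 and 27 at 12 h, and 31 were higher and 38 lower at 12 h than at 6 h. For members near 3 reads, depth does not allow a change to be seen.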
